A study of Mus musculus with 8 samples.

Results

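Transcripts of 7 genes of the RAS, RAF, MEK and ERK cascade were described in mouse brain endothelial cells (ECs): *Hras* and *Nras* (RAS), *Araf* and *Braf* (RAF), *Map2k1* and *Map2k2* (MEK) and *Mapk3* (ERK). They were chosen by name and not by a rule on their values, though earlier results of these data were known. They are 7 of the 49315 genes counted, and all 7 passed the filter on low counts. The study compared the RNA of brain ECs from pups that express an activated MEK in ECs with that of ECs from wild-type pups, to find which transcripts differ when brain vascular malformations have formed. ECs were taken from whole brain with magnetic beads that bind CD31, an EC surface protein, and poly(A) RNA of 4 Mutant and 4 Wild type libraries, each from 1 pup, was sequenced. Mutant pups were *R26* GT-Map2k1-GFP/+; *Tg-Cdh5CreER* +/-, wild-type pups came from the same litters, both lines were bred onto C57BL/6J, and litters received tamoxifen under the skin at P1 and were studied at P9. The *R26* allele holds, at the *Rosa* locus, a CAG promoter, a stop cassette flanked by LoxP sites, a *Map2k1* cDNA with the K57N change and an IRES-GFP. Tamoxifen activates the CreER recombinase, which the *Cdh5* promoter drives in ECs, and the stop cassette is then removed in part of the ECs, so each mutant library mixes recombined and unrecombined ECs. No group expressed wild-type MAP2K1 from *Rosa*, and whether the wild-type pups carried either transgene alone is not stated for these libraries.

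RAS proteins are small GTPases that are switched on by growth factor receptors and bring RAF kinases to the membrane, where RAF phosphorylates the kinases MEK1 and MEK2. These phosphorylate the kinases ERK1 and ERK2, which carry the signal to the nucleus and also induce their own inhibitors. In ECs the cascade acts downstream of the VEGF receptors in growth and migration, and mosaic activating changes in its genes occur in human arteriovenous malformations. The activity of these proteins is set mainly by GTP binding and phosphorylation, which transcript counts do not measure.

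The K57N change replaces a lysine of MEK1 with an asparagine. The reference coding sequence around that codon is shown with the aligned codon of *Map2k2*, to show how far the paralogs differ there. The sequences are from GENCODE vM21 transcripts (GRCm38), 5′ to 3′ in the direction of the gene, and capitals mark the lysine codon.
Map2k1 codon 57: tttctgacgcagAAGcagaaggtgggg
Map2k2 codon 61: ttccttacccagAAGgctaaggtcggt
The *Map2k1* window lies at chr9:64214507-64214533 on the minus strand and that of *Map2k2* at chr10:81108824-81108850 on the plus strand, both inside coding exon 2, and 8 of their 27 bases differ. Both windows are the reference sequence, and the sequence of the transgene cDNA is not given in the sources used here. The deposited counts are per gene, so reads of the transgene cDNA and of the endogenous *Map2k1* gene were counted together and cannot be told apart here.

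Between 24833373 and 34196955 reads per library were counted on genes. Pooled over genes, the difference between libraries of the same group exceeded counting noise (chi-square per degree of freedom 7.41 to 42.8), and each was kept as a replicate. Levels are given as normalized counts, the reads of a gene after scaling by edgeR's TMM factors to the mean library size. The groups were tested by edgeR's quasi-likelihood method, and a gene is called changed at a Benjamini-Hochberg adjusted p under 0.05 over the 16887 genes tested. The limit of the study also asks for a log2 fold change over 1 in either direction. All 10 EC markers were detected, with summed levels of 363014 to 439820 normalized counts in mutant and 341547 to 413992 in wild-type libraries, and 3 of them were higher and 3 lower in mutant ECs. All 6 oligodendrocyte markers were lower in mutant libraries (805 to 1779.9 summed against 2741 to 8072 normalized counts), as were all 6 red blood cell markers (2578 to 8461 against 15741 to 27314). The 6 neuron markers summed to 374 to 506 in mutant libraries and 262 to 2101 in wild-type libraries. Wild-type replicates 1 and 3 stood apart at 1209 and 2101. Of the 6, 4 were lower in mutant ECs, and *Syt1* (-1.70) and *Rbfox3* (log2 fold change 1.19, adjusted p = 0.0514) did not pass. *Rbfox3*, at 215 to 378 normalized counts in mutant and 50 to 252 in wild-type libraries, made up most of each mutant sum. The 6 astrocyte markers summed to 18446 to 22126 against 10887 to 12922, with 1 higher and 1 lower. Nearly all of that sum was *Gja1*, a gap junction gene that was higher in mutant ECs at a log2 fold change of 0.80, whereas *Aldh1l1* was lower (-0.96, adjusted p = 0.0146) and *Aqp4* (-0.87), *Slc1a3* (-0.60), *Slc1a2* (-0.40) and *Gfap* (0.24) did not pass. Of the markers of pericytes (2 higher of 6), smooth muscle (1 higher of 5), fibroblasts (2 higher and 2 lower of 5) and microglia and macrophages (none of 6), the summed levels overlapped between groups, and no marker of any list was at 0 in all libraries. The largest part of the pericyte sum was *Rgs5*, which did not pass (-0.44, adjusted p = 0.137). The 2 higher pericyte markers were *Abcc9* (1.78, adjusted p = 0.000236) and *Kcnj8* (0.81, adjusted p = 0.0242), and none was lower. The part of these other cells in the results below was not tested. In bulk RNA, fewer cells of a type and less RNA per cell cannot be told apart.

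Of the 7 genes, *Map2k1*, which includes the transgene, *Hras* and *Nras* were higher in mutant ECs, none was lower, and *Araf*, *Braf*, *Map2k2* and *Mapk3* did not pass the test. These 3 of 7 compare with 44.4% of all genes tested that changed in either direction (21.5% higher and 22.9% lower). The balance of directions over all genes depends on the scaling, with 3631 higher and 3873 lower here, 3141 and 4571 with upper-quartile scaling and 3196 and 4455 with library totals. Without *Map2k1*, 2 of 6 changed, and among the 4500 genes whose mean level lay within the range of these 6 genes (925 to 5509 normalized counts) 55.6% changed. Only *Map2k1* passed the limit of the study, which 14.0% of all genes (5.9% higher and 8.05% lower) and 7.84% of the genes at that level passed. The groups did not overlap for 4 of the 7 genes, against 42.5% of all genes (20.6% higher and 21.9% lower). Without wild-type replicates 1 and 3, 1 of the 7 genes (*Map2k1*) and 4947 genes in all changed. The largest change among the 6 genes was a log2 fold change of 0.26, and the median absolute log2 fold change over all genes was 0.37.

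**Figure D1:**
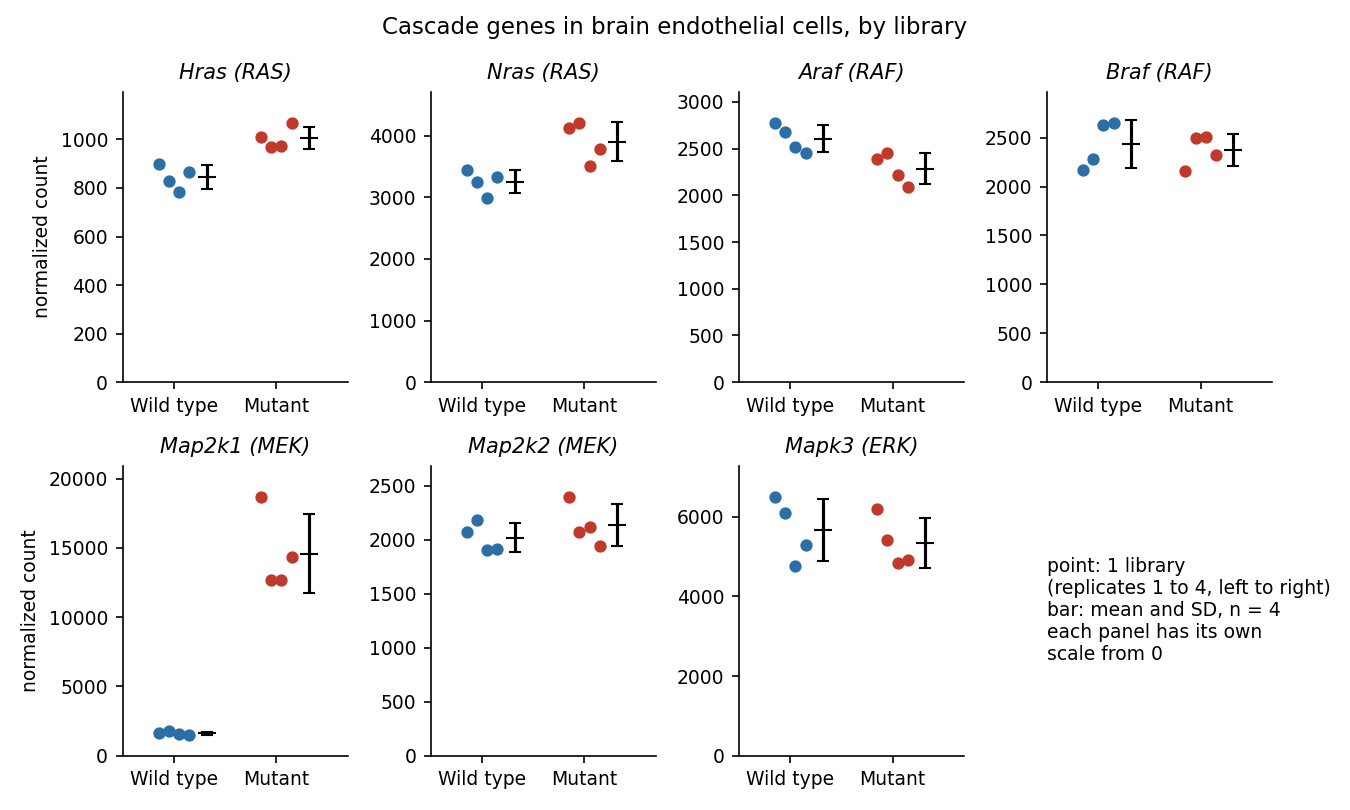
Normalized counts (reads scaled to the mean library size, linear axes from 0) of the 7 genes in each of the 4 wild-type (blue) and 4 mutant (red) libraries, with the mean and SD (n = 4) beside the points. The groups are apart for *Hras*, *Nras*, *Araf* and *Map2k1* and overlap for *Braf*, *Map2k2* and *Mapk3*.

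*Hras* (ENSMUSG00000025499) is found on chromosome 7 (141189105 to 141194005, minus strand, GRCm38 as for all positions) and encodes a RAS GTPase that is anchored in membranes by farnesyl and palmitoyl groups. It had 1011, 969, 974 and 1067 normalized counts in mutant replicates 1 to 4, and 897, 829.6, 784 and 867 in wild-type replicates 1 to 4. All mutant libraries lay above all wild-type libraries. The means were 1005 ± 45.3 and 844 ± 48.7 (SD, n = 4 each), 1.19 times higher in mutant ECs, with a log2 fold change of 0.25 (SE 0.07, 95% interval 0.09 to 0.42, adjusted p = 0.0179). *Hras* was higher in mutant ECs within each of the 3 groups of libraries whose descriptions start with the same digits, by 0.20, 0.31 and 0.30 on the log2 scale.

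*Nras* (ENSMUSG00000027852), on the plus strand of chromosome 3 from 103058285 to 103067914, encodes another RAS GTPase and is the more abundant of the pair in these cells. It had 4123, 4205, 3514 and 3779 normalized counts in mutant and 3436, 3242, 2996 and 3335 in wild-type replicates 1 to 4. The lowest mutant library was only slightly above the highest wild-type library, and the groups did not overlap. The means of 3905 ± 319 and 3252 ± 188 (SD, n = 4 each) gave 1.20 times more in mutant ECs, a log2 fold change of 0.26 (SE 0.08, 95% interval 0.09 to 0.43, adjusted p = 0.0176). Within the 3 groups of library descriptions *Nras* was higher by 0.32, 0.23 and 0.18 on the log2 scale, a direction again fixed by the lack of overlap.

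The calls of both RAS genes lie near the threshold. Without wild-type replicates 1 and 3, the libraries with the most reads on neuron markers, the log2 fold changes were 0.27 for both genes, with adjusted p = 0.0729 for *Hras* and 0.0771 for *Nras*. Leaving out 1 library at a time moved the call of *Hras* without wild-type replicate 2 (0.24, adjusted p = 0.0563), and that of *Nras* without mutant replicate 2 (0.23, adjusted p = 0.0539) or wild-type replicate 3 (0.23, adjusted p = 0.0561).

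*Araf* (ENSMUSG00000001127), on the plus strand of chromosome X from 20797814 to 20860519, and *Braf* (ENSMUSG00000002413), on the minus strand of chromosome 6 from 39603237 to 39725463, encode RAF kinases, of which BRAF has the stronger basal kinase activity. *Araf* had 2388, 2453, 2213 and 2086 normalized counts in mutant and 2774, 2680.4, 2517 and 2459 in wild-type replicates 1 to 4. All mutant libraries were below all wild-type libraries, by very little between mutant replicate 2 and wild-type replicate 4. The means of 2285 ± 167 and 2607 ± 145 (SD, n = 4 each) gave a log2 fold change of -0.19 (SE 0.07, 95% interval -0.35 to -0.03), which did not pass the test after adjustment (adjusted p = 0.0554). It passed in 7 of 18 alternative analyses, with adjusted p between 0.00906 and 0.300, and was negative in all 18, which leave out the alternative without genes on X. Within the 3 groups of library descriptions it was -0.17, -0.19 and -0.24, where the lack of overlap fixed the direction. With these groups as a block *Araf* was called lower (-0.19, adjusted p = 0.0128). The wild-type pups were matched to mutant pups within litters, but no label ties a library to its litter or explains the digits.

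*Braf* had 2157, 2493, 2511 and 2324 normalized counts in mutant and 2165, 2279, 2633 and 2649 in wild-type replicates 1 to 4. The groups overlapped over nearly their whole range. The log2 fold change was -0.04 (SE 0.09, 95% interval -0.23 to 0.15, adjusted p = 0.758), and it passed in none of 19 alternatives. *Braf* was 0.07 higher in mutant ECs in the largest group of library descriptions and -0.07 and -0.19 in the others.

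*Map2k1* (ENSMUSG00000004936), which encodes MEK1, is found on chromosome 9 (64185770 to 64253631, minus strand). Its count checks the labels, since mutant pups carry the cDNA. It had 18707, 12673, 12689 and 14321 normalized counts in mutant and 1638, 1759.7, 1533 and 1504 in wild-type replicates 1 to 4. Every library labelled mutant was far above every library labelled wild type. The fold was 9.07 (log2 fold change 3.18, SE 0.13, 95% interval 2.88 to 3.48, adjusted p = 2.84e-07), and 121 genes had a larger log2 fold change. The value measures the transgene and the endogenous gene together and is no measure of the endogenous gene.

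*Map2k2* (ENSMUSG00000035027), on the plus strand of chromosome 10 from 81105915 to 81124697, encodes MEK2, the paralog that no transgene supplies here. It had 2398, 2074, 2121 and 1942 normalized counts in mutant and 2073, 2180.15, 1904 and 1913 in wild-type replicates 1 to 4. Mutant replicate 1 was the highest of the 8 libraries, and the other three mutant libraries lay within the wild-type range. The log2 fold change was 0.08 (SE 0.08, 95% interval -0.10 to 0.26, adjusted p = 0.446), with 0 of 19 alternatives past the threshold. The interval reaches a fold of 0.934 below and 1.20 above. Like the other intervals, it is for the mix of recombined and unrecombined ECs and does not bound the change in recombined ECs alone. Over their coding sequences *Map2k1* and *Map2k2* are 77.3% identical, and they share 7 stretches of 50 bases, 0.207% of those in *Map2k1* transcripts and 0.122% of those in *Map2k2* transcripts.

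*Mapk3* (ENSMUSG00000063065), on the plus strand of chromosome 7 from 126759601 to 126765819, encodes ERK1. It had 6200.3, 5420.2, 4852 and 4921 normalized counts in mutant and 6509, 6104, 4773 and 5295 in wild-type replicates 1 to 4. Both groups covered almost the same range, with replicate 1 the highest in each. The log2 fold change was -0.08 (SE 0.11, 95% interval -0.34 to 0.17, adjusted p = 0.571), and *Mapk3* passed in none of 19 alternatives. Its interval was the widest of the 6 genes other than *Map2k1*.

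**Figure D2:**
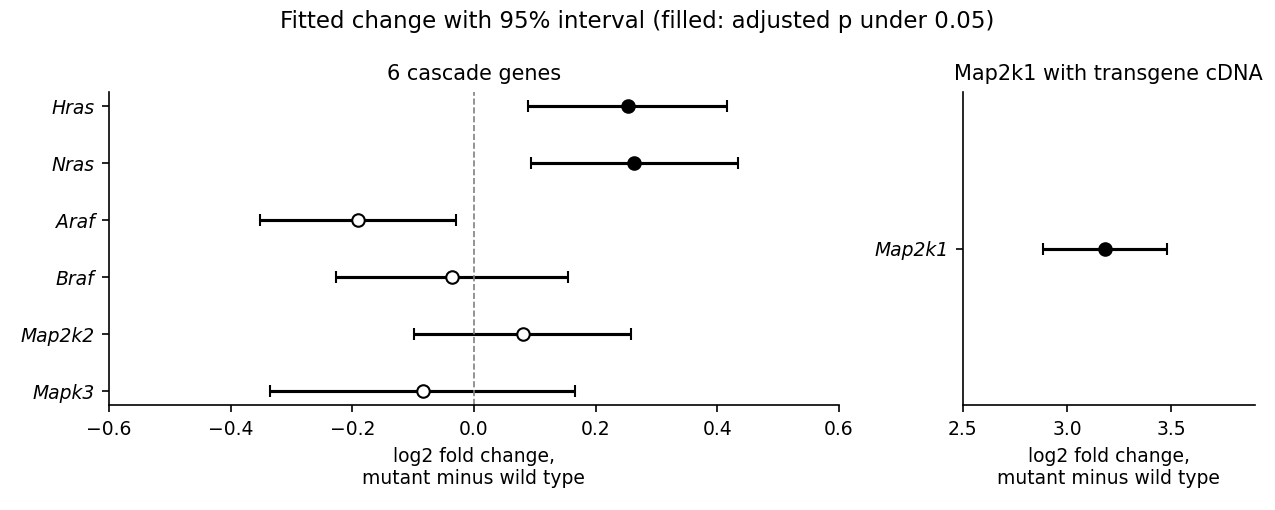
Fitted log2 fold change, mutant minus wild type, with its 95% interval from edgeR's quasi-likelihood fit (4 libraries per group; the right panel has its own axis, which does not start at 0). *Hras* (0.25) and *Nras* (0.26) are filled as changed, *Araf* (-0.19), *Braf* (-0.04), *Map2k2* (0.08) and *Mapk3* (-0.08) are open, and *Map2k1* with the transgene cDNA is at 3.18.

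Levels of different genes were compared as RPKM, reads per kilobase of exon scaled for library size, with the exon length of the count files. In wild-type ECs *Mapk3* was highest at 84.8 ± 11.7 RPKM (SD, n = 4), followed by *Nras* (20.6 ± 1.19), *Map2k2* (18.3 ± 1.21), *Map2k1* (16.0 ± 1.15), *Araf* (13.4 ± 0.750), *Hras* (7.63 ± 0.440) and *Braf* (5.92 ± 0.600). The ranges of *Nras* and *Map2k2*, and of *Map2k2* and *Map2k1*, overlapped between libraries, although within each of the 4 libraries the order was the same, and the ranges of all other neighbours were apart. In mutant ECs *Map2k1* with the transgene came first at 145 ± 28.3 RPKM, above *Mapk3* (80.0 ± 9.29), *Nras* (24.7 ± 2.02), *Map2k2* (19.3 ± 1.74), *Araf* (11.8 ± 0.862), *Hras* (9.09 ± 0.410) and *Braf* (5.77 ± 0.404), and no neighbours overlapped. The mutant RPKM of *Map2k1* divides transgene reads by the exon length of the endogenous gene, which can differ from the length of the cDNA. The order of the middle genes depends on the length used. Divided by the longest coding transcript in place of all exons, *Araf* moved from the fifth to the second place in wild-type ECs, and 4 of 7 genes kept their place in wild-type and 5 of 7 in mutant ECs. *Mapk3* stayed first in wild-type ECs and second in mutant ECs, and *Hras* and *Braf* stayed sixth and seventh in both.

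**Figure D3:**
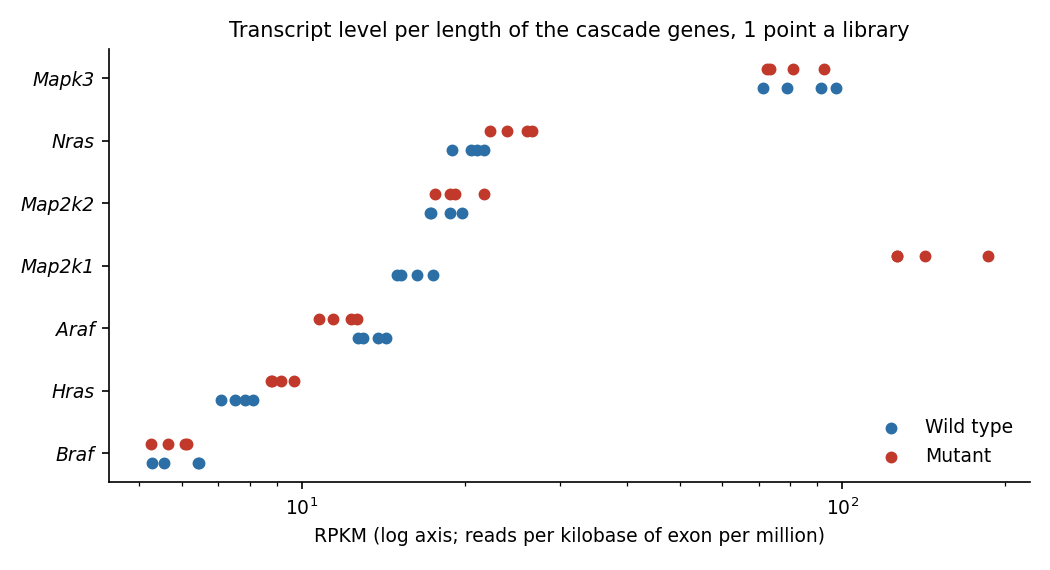
Transcript level per length (RPKM, log axis) of the 7 genes in wild-type (blue) and mutant (red) libraries, 1 point per library. *Mapk3* lies between 71.4 and 97.3 RPKM in wild-type libraries and *Braf* between 5.27 and 6.45, while *Map2k1* moves from 15.0 to 17.5 RPKM in wild-type to 126 to 186 RPKM in mutant libraries.

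The 3 pairs of paralogs were also compared as a ratio of RPKM within each library, which does not depend on how libraries are scaled, by an exact two-sided permutation test over the libraries (smallest possible p = 0.0286), with p adjusted over the 3 ratios. The *Hras* to *Nras* ratio was 0.350, 0.329, 0.396 and 0.403 in mutant and 0.373, 0.365, 0.374 and 0.371 in wild-type replicates 1 to 4. The wild-type ratios lay within the range of the mutant ratios, and the mean log2 ratio differed by -0.01 (SE 0.07, exact permutation p = 0.943, adjusted p = 0.943). The SD of the log2 ratio was 0.14 in mutant and 0.014 in wild-type libraries, where counting error alone would give about 0.053 and 0.054. The *Araf* to *Braf* ratio was 2.35, 2.09, 1.87 and 1.90 in mutant and 2.72, 2.49, 2.03 and 1.97 in wild-type libraries, with overlapping groups and a mean log2 difference of -0.16 (SE 0.14, exact permutation p = 0.229, adjusted p = 0.343). In both groups replicates 1 and 2 had the higher *Araf* to *Braf* ratios. Each mutant ratio was below that of the wild-type library with the same number, and the permutation test does not use this matching. The *Map2k1* to *Map2k2* ratio was 8.56, 6.71, 6.57 and 8.10 in mutant and 0.867, 0.886, 0.884 and 0.863 in wild-type libraries. The log2 difference was 3.09 (SE 0.10, exact permutation p = 0.0286, adjusted p = 0.0857). The groups were fully apart, and a ratio that alone reaches the smallest possible p cannot go below 0.0857 after adjustment. *Map2k1*, with the transgene, thus held 88.1% ± 1.39 of the summed RPKM of the MEK pair in mutant ECs and 46.7% ± 0.332 in wild-type ECs (SD, n = 4 each). Transgene reads were divided by the exon length of the endogenous gene, and the cDNA length is not given in the sources used here. The mutant ratio and share are therefore not a share of MEK transcripts. Over their coding sequences *Hras* and *Nras* are 75.3% and *Araf* and *Braf* 60.6% identical.

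**Figure D4:**
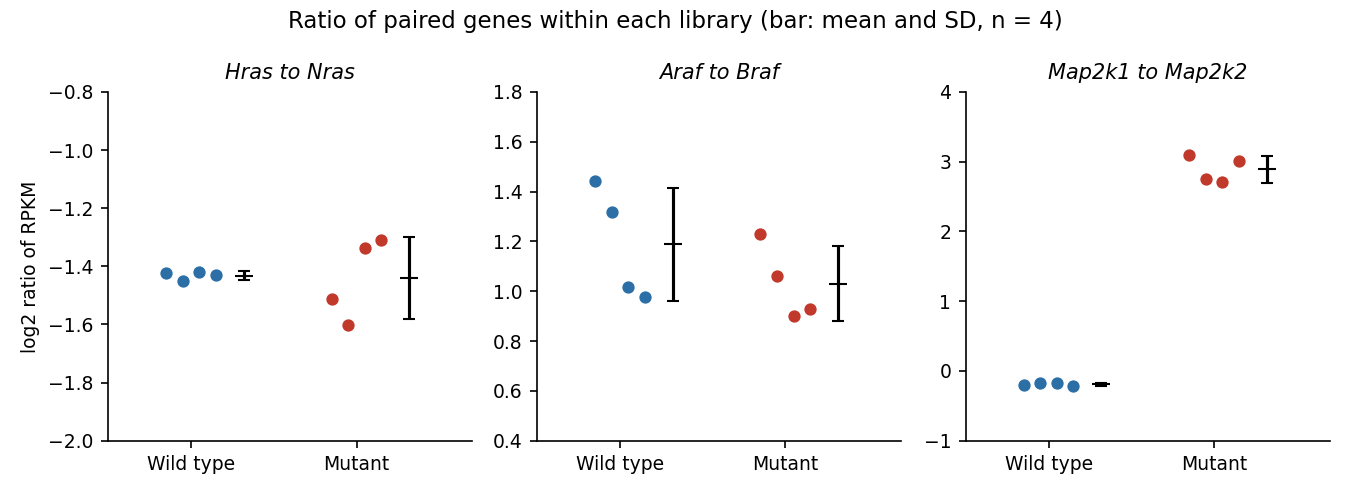
log2 ratio of the RPKM of paralogs within each wild-type (blue) and mutant (red) library, with mean and SD (n = 4); each panel has its own axis. The *Hras* to *Nras* and *Araf* to *Braf* ratios overlap between groups, and the *Map2k1* to *Map2k2* ratio moves from between -0.21 and -0.17 to between 2.71 and 3.10.

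Exons of other genes overlap those of *Araf* and *Braf*, and whether counting used the strand is not given in the sources used here. *Syn1*, a synaptic vesicle gene of neurons on the opposite strand, shares 9 exonic bases with *Araf* (0.138% of its length) and had 18, 25, 21 and 40 reads in mutant and 74, 70, 110 and 44 in wild-type replicates 1 to 4 (log2 fold change -1.33, adjusted p = 0.00237). *Ndufb2*, a subunit of respiratory complex I, shares 146 bases with *Braf* (1.05%) and had 529 ± 35.7 and 533 ± 31.0 (log2 fold change -0.01, adjusted p = 0.944). Of the stretches of 50 bases in their transcripts, 0.661% in *Nras*, 1.02% in *Araf*, 0.0428% in *Mapk3* and none in *Hras* and *Braf* occur in transcripts of another gene.

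The genes whose levels followed *Map2k1* most closely over the 8 libraries, among the 5420 genes that averaged 1000 normalized counts or more, were *Col15a1*, a collagen of the basement membrane zone (Pearson's r of log2 CPM 0.999), *Cotl1*, an actin-binding protein (0.999), and *Mcam*, a cell adhesion molecule of ECs (0.999). These coefficients rest on the difference between the groups. With the group means taken out, the closest were *Sap130*, a subunit of a histone deacetylase complex (0.991), *Lypla2*, an enzyme that removes palmitoyl groups (0.984), and *Col15a1* (0.964). *Col15a1* had 87698, 58331, 49994 and 62805 normalized counts in mutant and 1662, 1868, 1595 and 1553 in wild-type replicates 1 to 4, so that mutant replicate 1 was highest for *Col15a1* and *Map2k1* alike. The coefficients are descriptions of 8 libraries that share depth and preparation. *Hras* was below the level limit, and the r of the other cascade genes with *Map2k1* after the group means were taken out ran from -0.76 (*Braf*) to 0.76 (*Map2k2*).

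Genes around the cascade were read from the same fit in 8 lists of 113 genes, of which 109 were tested. The lists, too, were chosen with earlier results of these data known. Of the 109 genes, 33 were higher and 24 lower in mutant ECs (52.3%, against 44.4% of all genes). Among the 4500 genes at the level of the 6 cascade genes other than *Map2k1*, 55.6% changed. In the lists 6 higher and 2 lower genes passed the limit of the study, as did 14.0% of all genes and 7.84% at that level. The median log2 fold change of the lists was 0.06 and that of all genes was -0.02.

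Among 9 relatives of the RAS genes, 2 were higher, 4 lower and 3 did not pass (66.7% changed, against 44.4% of all genes). The median log2 fold change was -0.05. *Rras2* fell from 1825 ± 178 to 948 ± 135 normalized counts (SD, n = 4 each, log2 fold change -0.94, adjusted p = 0.000111) and *Mras* from 299 ± 33.5 to 165 ± 33.3 (-0.85, adjusted p = 0.00149). *Rras*, which encodes a GTPase known for its part in vessel maturation, fell from 2836 ± 376 to 2017 ± 268 (-0.49, adjusted p = 0.00682). *Ralb*, a GTPase that acts downstream of RAS through its own exchange factors, rose from 3732 ± 393 to 6165 ± 820 (0.72, adjusted p = 0.000460). *Rap1b*, a relative that regulates cell adhesion, had the highest count of the list and did not pass the test (0.11, adjusted p = 0.356). The groups did not overlap for 6 of the 9 genes, against 42.5% of all genes. *Rras2*, *Mras*, *Rras* and *Ralb* were among the 6 and were named for their large changes.

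Of 5 tested cascade kinases outside the 7 genes, 4 were lower and none higher (80.0% changed, against 44.4% of all genes). Their median was -0.46. *Map3k1*, a kinase upstream of JNK and ERK signaling, fell from 6499 ± 350 to 3729 ± 571 normalized counts (SD, n = 4 each, log2 fold change -0.80, adjusted p = 0.000224). *Map3k8*, a kinase that activates MEK independently of RAF, fell from 2359.5 ± 332 to 1359 ± 353 (-0.80, adjusted p = 0.00376). *Ksr1*, a scaffold related to RAF, fell from 2086 ± 70.2 to 1518 ± 222 (-0.46, adjusted p = 0.00406). Without wild-type replicates 1 and 3 *Ksr1* was at -0.40 (adjusted p = 0.0582).

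Of 22 scaffolds and modulators, 10 were higher, 2 lower and 10 did not pass (median 0.17, 54.5% changed, against 44.4% of all genes). *Peak1*, a pseudokinase scaffold, rose from 2082 ± 92.6 to 7076 ± 1462 normalized counts (SD, n = 4 each, log2 fold change 1.77, adjusted p = 7.47e-06), and *Ywhag*, a 14-3-3 protein of the family that binds RAF, from 5096 ± 469 to 10908 ± 1564 (1.10, adjusted p = 4.34e-05). *Arrb1*, a beta-arrestin, rose from 1666 ± 78.7 to 3146 ± 527 (0.92, adjusted p = 0.000120). *Shoc2*, part of the phosphatase complex that activates RAF, rose from 2276 ± 175 to 3518 ± 386 (0.63, adjusted p = 0.000366). *Hsp90ab1*, a chaperone that holds RAF kinases in a stable form, had the highest count, and was at 107543 ± 6169 in mutant and 89384 ± 4315 in wild-type ECs (0.27, adjusted p = 0.0183). Without wild-type replicates 1 and 3 the number changed in this list was 7 in place of 12, and *Hsp90ab1* was at 0.26 (adjusted p = 0.104). *Hsp90ab1* also did not pass when genes were kept from 1 count (0.27, adjusted p = 0.0612).

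Of 12 adaptors upstream of RAS, 3 were higher, 2 lower and 7 did not pass (median -0.02, 41.7% changed, against 44.4% of all genes). *Gab1*, a docking protein downstream of receptors, fell from 5129 ± 412 to 2913 ± 350 normalized counts (SD, n = 4 each, log2 fold change -0.82, adjusted p = 0.000122), whereas its relative *Gab2* rose from 1261 ± 81.1 to 1646 ± 183 (0.38, adjusted p = 0.00614). *Nck1*, an adaptor to the actin cytoskeleton, was at 0.27 (adjusted p = 0.00657), and *Ptpn11*, which encodes the phosphatase SHP2, at -0.26 (adjusted p = 0.0187). *Crk*, with the highest count, did not pass (0.12, adjusted p = 0.141). This list depended most on the libraries used. Without wild-type replicate 1 or without wild-type replicate 2 its count of changed genes was 3, and without wild-type replicates 1 and 3 it was 1, with *Gab2* at 0.33 (adjusted p = 0.0658), *Nck1* at 0.27 (adjusted p = 0.0555) and *Ptpn11* at -0.29 (adjusted p = 0.0532). *Ptpn11* also lost its call without mutant replicate 4 (-0.21, adjusted p = 0.0570), wild-type replicate 1 (-0.23, adjusted p = 0.0563) or wild-type replicate 2 (-0.22, adjusted p = 0.0620). *Crk* passed with DESeq2 (0.14, adjusted p = 0.0432).

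Of 16 genes of RAS lipid processing, traffic and turnover, 5 were higher, 3 lower and 8 did not pass (median 0.04). *Abhd17b* and *Lypla2*, whose products remove palmitoyl groups from proteins, rose from 681 ± 87.4 to 1597 ± 255 (log2 fold change 1.23, adjusted p = 5.37e-05) and from 1146 ± 95.9 to 1846 ± 317 normalized counts (0.69, adjusted p = 0.000949, SD, n = 4 each). *Otub1*, a deubiquitinase, rose from 1162 ± 57.2 to 1743 ± 84.8 (0.59, adjusted p = 9.53e-05). *Icmt*, which methylates the farnesylated end of RAS proteins, rose from 2349.6 ± 108 to 3423 ± 181 (0.54, adjusted p = 0.000122). *Rabgef1*, an exchange factor and ubiquitin ligase with the highest count of the list, did not pass (-0.10, adjusted p = 0.250). The groups did not overlap for 8 of the 16 genes, against 42.5% of all genes. The 4 named genes that rose were among the 8 and were named for their large changes.

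In the parallel MAPK cascades (p38, JNK, ERK5 and atypical kinases), 4 genes were higher, 3 lower and 14 did not pass among 21 tested. The median was 0.06, and 33.3% changed, against 44.4% of all genes. *Mapk11*, a p38 kinase, rose from 620.3 ± 76.7 to 1103.1 ± 207 normalized counts (SD, n = 4 each, log2 fold change 0.83, adjusted p = 0.00108), and *Map2k3*, a kinase that activates p38, from 5599.6 ± 854 to 7708 ± 762 (0.46, adjusted p = 0.00809). *Mapk6*, an atypical MAPK, rose from 9172 ± 608 to 12654 ± 475 (0.46, adjusted p = 0.000530). *Map3k4* fell from 1769 ± 73.5 to 1229.9 ± 182 (-0.53, adjusted p = 0.00193), and *Map3k11*, with the highest count, from 14788 ± 1957 to 11506 ± 812 (-0.36, adjusted p = 0.0147). Both encode kinases at the top of stress-activated cascades. Without wild-type replicates 1 and 3 this list had 4 changed genes in place of 7, with *Map2k3* at 0.40 (adjusted p = 0.0516) and *Map3k11* at -0.35 (adjusted p = 0.0672), and without wild-type replicate 1 alone *Map3k11* was at -0.30 (adjusted p = 0.0559).

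Of 10 kinases activated by ERK, 2 were higher, 3 lower and 5 did not pass (median 0.02). *Mapkapk2*, a kinase best known as a p38 target, rose from 3117 ± 295 to 4614 ± 290 normalized counts (SD, n = 4 each, log2 fold change 0.57, adjusted p = 0.000365), and *Rps6ka2*, an RSK kinase, from 1418 ± 75.0 to 2047 ± 326 (0.53, adjusted p = 0.00272). The MNK kinases *Mknk2* (10976 ± 717 to 7529.9 ± 868, -0.54, adjusted p = 0.00105) and *Mknk1* (1604 ± 129 to 1166 ± 126, -0.46, adjusted p = 0.00275), which phosphorylate the translation factor eIF4E, both fell. *Mknk2* had the highest count of the list.

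Of 14 ERK phosphatases and feedback inhibitors tested, 7 were higher, 3 lower and 4 did not pass. The 71.4% that changed compares with 44.4% of all genes, and the median log2 fold change of 0.46 was the highest of the 8 lists. *Spred3* and *Spred1*, whose products hold back RAS and RAF, rose from 516 ± 40.4 to 1584 ± 267 (log2 fold change 1.62, adjusted p = 8.19e-06) and from 1182 ± 183 to 2325 ± 168 normalized counts (0.98, adjusted p = 7.54e-05, SD, n = 4 each). *Dusp4*, a nuclear phosphatase of ERK, rose from 2911 ± 311 to 6232 ± 1339 (1.10, adjusted p = 0.000213). *Spry2*, a Sprouty inhibitor, rose from 1268 ± 115 to 2392 ± 314 (0.92, adjusted p = 8.85e-05). The 3 lower genes were *Spry1* (-0.87, adjusted p = 0.00745), *Dusp7* (-0.80, adjusted p = 0.000303) and *Dusp6* (-0.41, adjusted p = 0.00886). *Dusp1*, a phosphatase with the highest count of the list, was at 28344 ± 7223 in mutant and 38732 ± 5576 in wild-type ECs and did not pass (-0.45, adjusted p = 0.0669). With DESeq2 *Dusp1* passed (-0.43, adjusted p = 0.0467), as it did with upper-quartile scaling (-0.52, adjusted p = 0.0330), with library totals (-0.51, adjusted p = 0.0353), without mutant replicate 1 (-0.54, adjusted p = 0.0457) and with the groups of library descriptions as a block (-0.48, adjusted p = 0.00169).

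**Figure D5:**
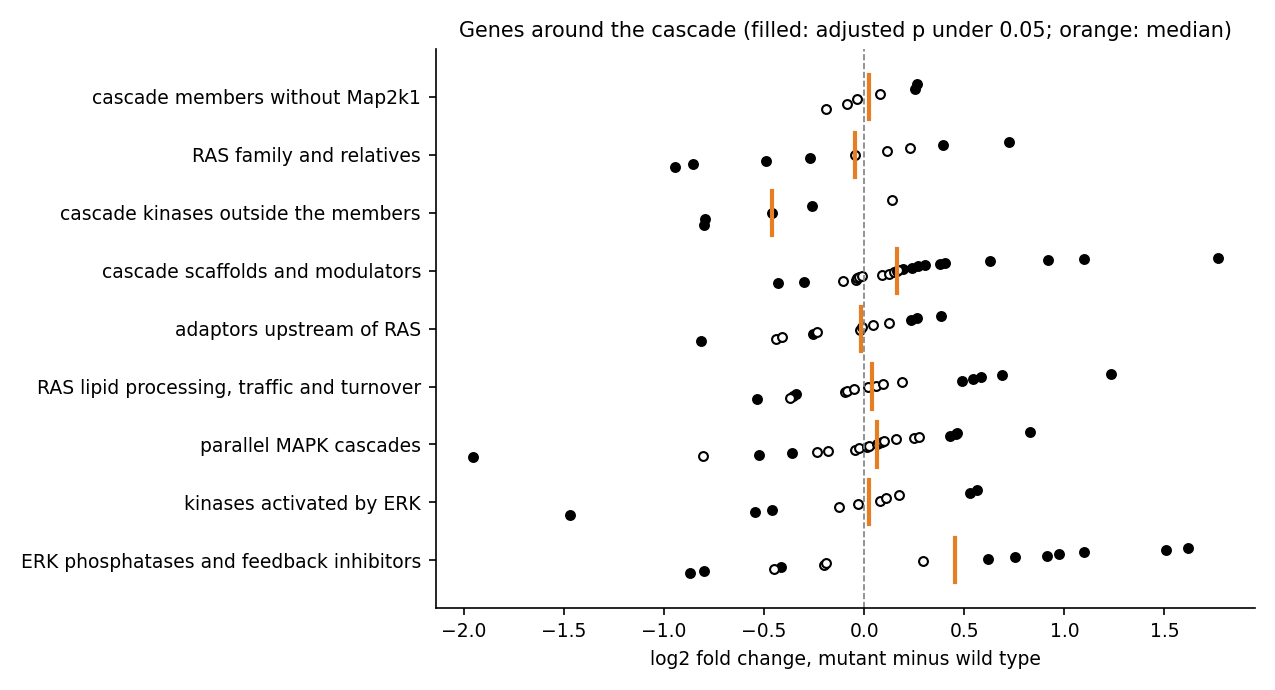
log2 fold change, mutant minus wild type, of each tested gene (1 point) in the 8 lists and of the 6 cascade genes other than *Map2k1*, filled where the adjusted p was under 0.05, with the median of each list in orange. The 6 cascade genes span -0.19 to 0.26, and the list of ERK phosphatases and feedback inhibitors has the highest median at 0.46.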

How the data were processed

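Brain EC libraries of 4 mutant and 4 wild-type pups were analysed. Poly(A) libraries were sequenced, after which Trimmomatic removed adapters and STAR aligned the reads to GRCm38. The authors deposited whole-number counts per gene for each library, without normalization. They also deposited a signal for 16889 genes, the same counts divided by 1 DESeq2 size factor per library. 100% of these values gave whole reads (tolerance 0.01), so the counts were used throughout. The counting program, annotation release, strand use and treatment of multiply mapped reads are not given in the sources used here. No sex or litter is stated per library, and p-values measure the spread between pups.

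The fit used edgeR 4.0.16 under R 4.3.3 (TMM, filterByExpr with minimum count 10, glmQLFit and glmQLFTest, no covariate, Benjamini-Hochberg over 16887 genes). DESeq2 1.42.0, other scalings and filters, a replicate block, a block of the shared first digits of the library descriptions, and left-out libraries were alternatives. Intervals of 95% come from the fit. The analysis was tested on simulated counts. Of the gene identifiers, 48970 of 49315 matched a symbol in GENCODE vM21.

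The 7 genes and the lists were chosen with earlier results of these data known. Named from each list were the 4 genes of largest absolute log2 fold change among changed genes whose higher group averaged 100 normalized counts or more, and the gene of highest mean. The values of 1 gene so picked are not reported here. The 3 genes most like *Map2k1* and genes overlapping a member were also named. The 3 lower genes of the list of ERK phosphatases and feedback inhibitors were given outside this rule and do not count as named genes.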

Additional observations from a re-analysis of the deposited data

Results flagged for a closer look

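In 96 groups of 4 libraries, Dixon's test was applied to the 7 cascade genes and the named genes around them, and 2 groups held a library far from the others (95% critical value), where chance would give about 1 in 20 groups. *Mras*, a relative of the RAS genes, had 215 normalized counts in mutant replicate 3, and the other mutant libraries lay between 142 and 154. That library was nearer to the wild-type mean of 299 than the other mutant libraries were, and was below every wild-type library. *Hsp90ab1*, the RAF chaperone, had 82931 normalized counts in wild-type replicate 3, and the other wild-type libraries lay between 91169 and 91986. None of the 7 cascade genes held such a library in either group. Wild-type replicate 3 was also the library with the most reads on neuron markers (2101 normalized counts), and the part of this was not tested.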

How the results depend on the processing

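*Map2k1* passed in all 19 alternatives (log2 fold change 3.06 to 3.25), *Hras* in 17 of 19 and *Nras* in 16 of 19, and *Map2k2* in none of 19 (0.02 to 0.15). *Araf* passed with upper-quartile scaling (-0.25, adjusted p = 0.00906), library totals (-0.25, adjusted p = 0.0108), genes with a mean of at least 100 counts (-0.21, adjusted p = 0.0228) and a block of the shared first digits of the library descriptions (-0.19, adjusted p = 0.0128). With 1 library left out, log2 fold changes ran from 0.22 to 0.30 for *Hras*, from 0.23 to 0.32 for *Nras*, from -0.23 to -0.13 for *Araf*, from -0.070 to 0.031 for *Braf* and from -0.15 to 0.0078 for *Mapk3*. The sign of *Braf* turned without mutant replicate 1 (0.031) or wild-type replicate 3 (0.0079) or 4 (0.0048), and that of *Mapk3* without wild-type replicate 1 (0.0078).

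The label numbers were not taken as pairs, since the deviations of same-numbered libraries correlated at 0.20, 0.21, 0.29 and 0.02, and not every library correlated best with its own number. In the largest group of library descriptions, mutant and wild-type libraries correlated at 0.17 to 0.25. Mutant replicate 4 correlated best with wild-type replicate 3 (0.38), outside its own group. With the replicate block, 8162 genes changed in place of 7504 and *Araf* passed (-0.19, adjusted p = 0.0251), and *Dusp1* passed too (-0.48, adjusted p = 0.00352). With the groups of library descriptions as a block, 8610 genes changed, and *Araf* and *Dusp1* passed as well.

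A minimum mean of 100 counts left 1201 genes past the limit of the study in place of 2356, with fewer genes tested. Without wild-type replicates 1 and 3, chosen after seeing the data, 4947 genes changed, as did 1 of the 7 cascade genes, 7 scaffolds and modulators, 1 adaptor and 4 genes of the parallel cascades, with *Hras* at 0.27 (adjusted p = 0.0729) and *Nras* at 0.27 (adjusted p = 0.0771), with 2 wild-type libraries fewer. The adaptor list had between 3 and 5 changed genes with 1 library left out. The *Hras* to *Nras* log2 ratio difference ran from -0.053 to 0.045, and its sign turned without mutant replicate 1 (0.015) or 2 (0.045). Exact sign flips of the ratios over 4 pairs could not go below p = 0.125. Over the longest coding transcript, 4 genes in wild-type and 5 in mutant ECs kept their place in the order of levels, both chosen after seeing the data. The cause of these changes was not tested. The largest shift of the median log2 fold change of all genes by another scaling was -0.0624 (upper quartile), and no alternative reversed a named gene outside the cascade. Pooled over genes, libraries of a group differed by more than the sampling noise. This was not computed for single genes. The SD of the *Hras* to *Nras* log2 ratio in wild-type libraries (0.014) was below its counting error (0.054).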
